A study of Mus musculus with 11 samples.

Results

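*Lcn2*, *Saa3*, *C3*, *Acod1*, and *Cebpb*, a group of acute-phase and innate defence genes, were followed in lymphatic endothelial cells (LECs) after co-culture with skin carcinoma cells. They were taken by gene symbol, and all 5 were among the 191 genes with deposited values for LECs. None was among the 290 genes listed for the cancer cells, where 0 of the 5 symbols occur. The study sequenced RNA from mouse LECs and from HaCa4, a mouse skin squamous carcinoma line that carries an oncogenic H-Ras mutation. The LEC control (n = 3) was grown as a single culture, and LEC-sorted (n = 3) was recovered by FACS after 24 h with HaCa4 cells. The HaCa4 control (n = 2) and HaCa4-sorted (n = 3) tables list none of these genes, whose levels in HaCa4 cells were therefore not analysed here, and are used below for *Krt8* alone. The LECs (imLEC) are immortalized dermal cells of the H-2Kb-tsA58 mouse, in which interferon-γ and a low temperature maintain the SV40 large T antigen. The study used LEC clones interchangeably, and the clone behind each library is not given in the sources used here. LECs were sorted by an antibody to CD31 from co-cultures with dye-labelled HaCa4 cells. Whether the control LECs passed through the same sort is not clear from the sources used here, and if they did not, an effect of sorting and an effect of co-culture cannot be told apart. The methods withdraw interferon-γ and the low temperature ahead of functional assays, and do not say in which condition the cultures for RNA were kept. Nothing states that replicates came from separate cultures, and p-values measure the spread between these libraries, which may be technical.

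The acute-phase response is a programme of secreted defence proteins, best known from the liver and also used by endothelial and epithelial cells. Cytokines such as IL-1, IL-6, and TNF induce it through NF-κB, STAT3, and the C/EBP transcription factors, of which C/EBPβ, encoded by *Cebpb*, is a member. Lymphatic endothelium lies on the route of immune cells out of the tissue and can itself secrete chemokines and complement proteins under inflammation. *Lcn2* encodes lipocalin-2, which withholds iron from bacteria by binding their siderophores. *Saa3* encodes an inducible serum amyloid A, *C3* the central component of complement, and *Acod1* the mitochondrial enzyme that makes itaconate, best known from activated macrophages.

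The 5 genes lie at separate places of the mouse genome (GRCm38.p6, RefSeq). *Lcn2* spans 32384637 to 32387739 on the minus strand of chromosome 2, and *Cebpb* 167688915 to 167690432 on the plus strand of the same chromosome. *Saa3* spans 46711998 to 46719615 on the minus strand of chromosome 7. *C3* spans 57203967 to 57228136 on the minus strand of chromosome 17, and *Acod1* 103047012 to 103056573 on the plus strand of chromosome 14. In GENCODE M21 the transcript of *Cebpb* has 1 exon, those of *Saa3*, *Acod1*, and *Lcn2* have 4, 5, and 6 exons, and that of *C3* has 41 exons. No window of 50 bases in the *Lcn2*, *C3*, or *Acod1* transcripts recurred in a transcript of another gene. In *Saa3* 1.78% of windows also occurred in its paralog *Saa1*. In *Cebpb* 18.1% of windows overlapped *Tmem189*, which is annotated on the opposite strand. Whether the counting used strand is not given in the sources used here, so reads of *Cebpb* and *Tmem189* cannot be told apart in that stretch.

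The 250 bases before the start of each gene in the RefSeq promoter table were searched on both strands for short motifs. These were the C/EBP motif TTNNGNAA, the NF-κB consensus, and the TATA box TATAAA. The C/EBP letters were found in 3 of the 5 windows, with 4 matches in *Saa3*, 3 in *C3*, and 1 in *Lcn2*, none of which overlapped another. They occur in 36.9% of the 32841 promoters of the RefSeq table and in 38.1% of the 176 promoters of listed LEC genes. The NF-κB consensus was found in 0 of the 5 windows, against 7.25% of all promoters and 20.5% of the 176 promoters of listed LEC genes. TATAAA occurred in *Acod1* alone, on the gene's own strand from -28 to -23 of the RefSeq start and inside the first exon of the GENCODE model. It was found in 12.4% of all promoters on either strand over the 250 bases. On the gene's own strand within the last 50 bases it was found in 2.63%. The *Cebpb* window held none of the motifs and had a GC content of 81.6%, whereas the median of all promoters was 52.4%. A match is a description of the letters and not a bound site. For *Saa3* the start in that table lies inside the gene span given above, so its window is not upstream of the whole span. The windows with C/EBP letters are shown 5′ to 3′ on the strand of the gene, with the matches in capitals. Bases inside the first exon of the GENCODE model were left off the end, 58 in *Lcn2*, 24 in *Saa3*, and none in *C3*.
Lcn2, chr2:32387798-32387989, minus strand: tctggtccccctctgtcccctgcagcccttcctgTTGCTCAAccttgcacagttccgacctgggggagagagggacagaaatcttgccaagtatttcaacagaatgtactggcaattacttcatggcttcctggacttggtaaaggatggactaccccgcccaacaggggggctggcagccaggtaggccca
Saa3, chr7:46715701-46715926, minus strand: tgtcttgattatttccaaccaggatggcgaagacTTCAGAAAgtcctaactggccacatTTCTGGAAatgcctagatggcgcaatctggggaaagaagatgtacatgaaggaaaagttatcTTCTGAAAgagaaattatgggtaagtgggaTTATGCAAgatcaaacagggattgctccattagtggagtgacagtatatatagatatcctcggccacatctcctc
C3, chr17:57228137-57228386, minus strand: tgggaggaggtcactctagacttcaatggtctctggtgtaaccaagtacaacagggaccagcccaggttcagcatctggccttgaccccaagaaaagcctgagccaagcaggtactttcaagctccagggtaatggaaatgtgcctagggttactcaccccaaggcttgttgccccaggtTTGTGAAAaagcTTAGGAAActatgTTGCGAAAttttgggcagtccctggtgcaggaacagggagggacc
The match in *Lcn2* lies from -216 to -209 of its RefSeq start, and its capitals read as the motif on the opposite strand. The *Saa3* matches lie on the gene's own strand and begin -216, -191, -129, and -99 bases from the start in the promoter table. The *C3* matches are close together, starting at -70, -58, and -45.

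Values are TPM, which corrects for transcript length and scales each library to a fixed total, so levels can be compared between genes. The listed genes made up between 2.51% and 3.85% of the total TPM of a LEC library, and the number of reads behind them is unknown. Within the listed TPM, the 5 genes held 0.229%, 0.305%, and 0.268% in the 3 control libraries and 1.97%, 2.92%, and 1.80% in the sorted libraries. LEC-sorted was compared with LEC control by limma on log2(TPM + 1) over all 191 genes. A gene was called when its log2 fold change reached 0.5 in either direction with a Benjamini-Hochberg adjusted p of 0.05 or less, which are the limits used in the study. All 5 genes were called as higher in LEC-sorted, but 63.9% of all listed genes were called in that direction. The deposited genes are a selection that the study made on these libraries, so the calls and adjusted p-values are not independent evidence of a change. The paper reports as many deregulated genes in co-cultured LECs as are listed here, so the list appears to be that set. Being listed therefore does not mean being detected, and a gene that is not listed may still be expressed. In all 5 the sorted libraries lay above every control library, as they did in 63.9% of the listed genes. An exact two-sided permutation test gave p = 0.1 for each gene, the smallest value that 3 libraries against 3 allow. When libraries were rescaled to a shared median of the listed genes, 4 of the 5 remained called as higher, against 24.1% of the listed genes. The scaling shifted the listed genes by -0.61 on the log2 scale (median of the shifts of single genes) and turned the split of all calls from 122 higher and 62 lower to 46 higher and 64 lower.

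*Cebpb*, the transcription factor of the group, was well expressed in the single-culture control. It stood at 52.07, 68.09, and 54.35 TPM in control replicates 1 to 3 while sorted replicates 1 to 3 held 187.96, 123.19, and 120.05 TPM. The groups did not overlap, and sorted replicate 1 was the highest library while the other two lay close together. The control mean was 58.2 ± 8.67 TPM and the sorted mean 144 ± 38.3 TPM (SD, each n = 3). Its log2 fold change of 1.27 (standard error 0.22, 95% confidence interval 0.76 to 1.78) was the smallest of the group on this scale, with an adjusted p of 0.00321 from limma. After scaling to the same median it fell to 0.65 and was no longer called (adjusted p = 0.0579 from limma).

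*Lcn2*, whose protein is secreted, showed the largest change. The control libraries held 1.20, 2.98, and 3.83 TPM, and the sorted libraries 443.26, 902.73, and 323.93 TPM. The lowest sorted library was 84.6 times the highest control library. Sorted replicate 2 stood out above the other two, and the sorted SD of 306 TPM was 54.9% of the mean of 557 TPM. The log2 fold change was 7.19 (standard error 0.43, 95% confidence interval 6.17 to 8.20), with an adjusted p of 6.74e-05 from limma. The rise in level, 554 TPM, was larger than those of the other 4 genes, which ranged from 6.75 TPM in *Acod1* to 85.6 TPM in *Cebpb*.

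*Saa3*, also a secreted protein, was close to absent in the control. It was listed at 0 in control replicates 1 and 3 and at 0.69 TPM in replicate 2. The sorted libraries held 7.73, 28.23, and 6.98 TPM, and again replicate 2 stood apart, at 4.04 times the lowest. All sorted libraries were at least 10.1 times the highest control library. The log2 fold change was 3.41 (standard error 0.53, 95% confidence interval 2.17 to 4.65), with an adjusted p of 0.00236 from limma. This value depends on the pseudocount because of the zeros. It was 5.87 with a pseudocount of 0.1 TPM and 1.72 with 5 TPM, and the gene was called with either.

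*C3* was already variable in the control, where the libraries held 4.20, 18.69, and 10.08 TPM. The sorted libraries held 26.57, 61.62, and 78.97 TPM, with replicate 3 the highest and replicate 1 the lowest. The groups came close to each other, as the lowest sorted library was 1.42 times the highest control library. The control mean was 10.99 ± 7.29 TPM and the sorted mean 55.7 ± 26.7 TPM (SD, each n = 3). The log2 fold change was 2.31 (standard error 0.56, 95% confidence interval 1.002 to 3.62), with an adjusted p of 0.00821 from limma. Its interval was the widest of the group.

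*Acod1* remained at a low level. The control libraries held 0.20, 2.36, and 1.57 TPM, and the sorted libraries 5.67, 10.75, and 7.95 TPM. The lowest sorted library was 2.40 times the highest control library, and control replicate 1 was far below the other two. The control mean was 1.38 ± 1.09 TPM and the sorted mean 8.12 ± 2.54 TPM (SD, each n = 3). The log2 fold change was 2.03 (standard error 0.43, 95% confidence interval 1.02 to 3.03), with an adjusted p of 0.00566 from limma. It was 1.04 with a pseudocount of 5 TPM and 2.89 with 0.1 TPM, and was called with either.

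**Figure D1:**
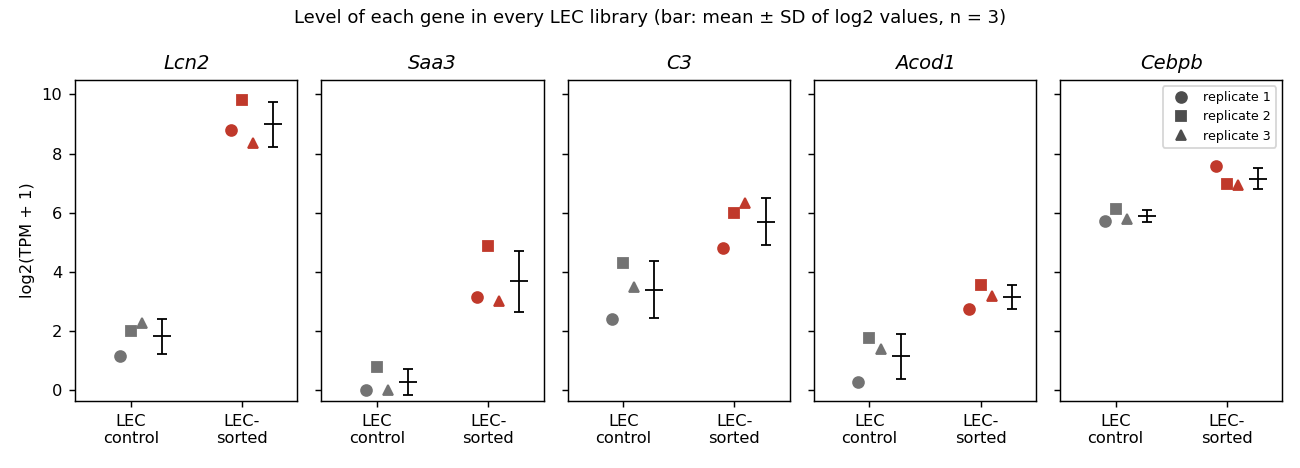
Level of the 5 genes on the log2(TPM + 1) scale in each of the 3 LEC control (grey) and 3 LEC-sorted (red) libraries, with marker shapes for replicates 1 to 3 and bars for the mean and SD of the log2 values. The sorted libraries lie above the control libraries in every panel, with the widest gap in *Lcn2* and the narrowest in *C3*.

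The order of the levels differed between the groups. In the control it ran from *Cebpb* through *C3*, *Lcn2*, and *Acod1* to *Saa3*. This order held in all 3 control libraries. In LEC-sorted *Lcn2* stood first, above *Cebpb* in all 3 libraries, followed by *C3*, which was above *Saa3* in all 3. The lowest neighbours did not separate, as *Saa3* was above *Acod1* in 2 of the 3 sorted libraries and below it in replicate 3. The ratio of *Lcn2* to *Cebpb* TPM was 0.0231, 0.0438, and 0.0705 in the control libraries and 2.36, 7.33, and 2.70 in the sorted libraries. Ranked by mean TPM among the 191 listed genes, *Lcn2* moved from place 157 to place 12, and *Cebpb* from 56 to 38. *C3* moved from place 120 to 76, *Saa3* from 183 to 138, and *Acod1* from 164 to 154.

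By the size of the log2 fold change, *Lcn2* stood at place 1 of the 191 listed genes, *Saa3* at 11, *C3* at 18, *Acod1* at 24, and *Cebpb* at 53. The places depend on the pseudocount, and with 0.1 TPM *Lcn2* came to place 2 (7.66), after *Csf3* (7.85), a granulocyte growth factor named here after its values were seen. With 0.1 TPM *Saa3* stood at 10, *Acod1* at 21, *C3* at 30, and *Cebpb* at 68, and with 5 TPM *Lcn2* stood at 1, *C3* at 16, *Saa3* at 21, *Cebpb* at 39, and *Acod1* at 52. The median log2 fold change of the 5 genes was 2.31, against 0.87 over all listed genes, and 1.72 against 0.27 after scaling to the same median. The genes were chosen with earlier results known, so these medians are a description. The confidence interval of *Lcn2* lay wholly above those of the other 4 genes, which ended at 4.65 or below. The interval of *Cebpb* ended at 1.78, below the lower end of the *Saa3* interval at 2.17, and overlapped those of *C3* and *Acod1*. The difference between genes was not itself tested.

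**Figure D2:**
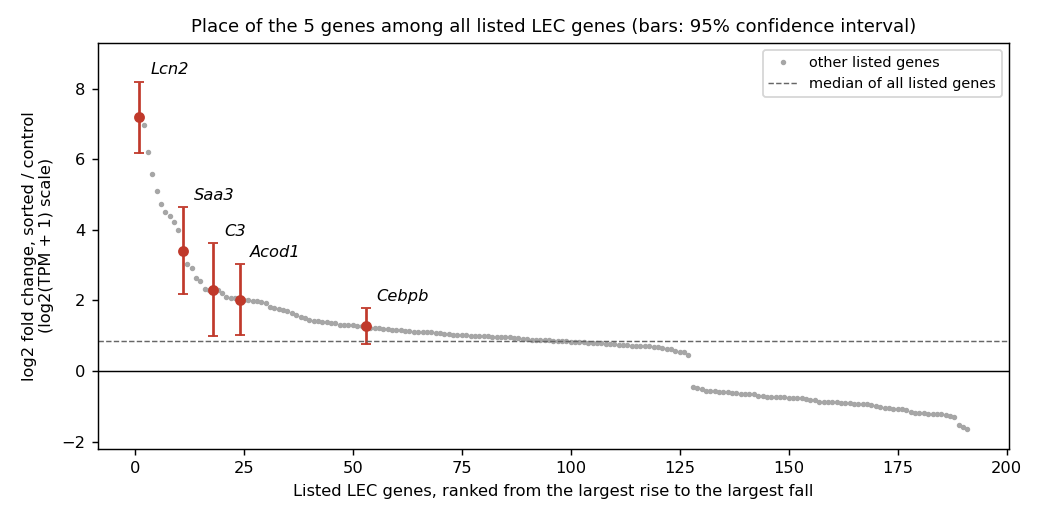
Log2 fold change of LEC-sorted against LEC control on the log2(TPM + 1) scale for the 191 listed genes, ranked from the largest rise to the largest fall, with the 5 genes in red and their 95% confidence intervals. *Lcn2* leads the ranking on this scale, *Saa3*, *C3*, and *Acod1* lie within the first 24 places, and *Cebpb* at place 53 is nearer to the median of 0.87, drawn as a dashed line.

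The sorted libraries did not rank alike over the 5 genes. *Lcn2* and *Saa3* shared an order, with replicate 2 highest and replicate 3 lowest, which 44 of the 191 listed genes also had. *Acod1* was highest in replicate 2 and lowest in replicate 1, an order found in 53 listed genes. *C3* ran from replicate 3 down to replicate 1, as did 42 listed genes, and *Cebpb* from replicate 1 down to replicate 3, as did 28. In the control, *C3*, *Acod1*, and *Cebpb* were all highest in replicate 2 and lowest in replicate 1. *Saa3* was also highest in control replicate 2, and *Lcn2* in replicate 3. Relative to the mean of its group, *Cebpb* had the smallest spread over the sorted libraries (SD 26.7% of the mean) and *Saa3* the widest (84.2%).

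Markers of other cell types were unequal between the sorted libraries, and a fibroblast marker was not low. The study describes these co-cultures as LECs with HaCa4 cells and names no fibroblasts in them. Of 16 keratinocyte and carcinoma markers, 1 was among the listed LEC genes, *Krt8*, a keratin of simple epithelia. It was listed at 0 in all 3 control libraries and at 0.19, 2.19, and 0.89 TPM in the sorted libraries. HaCa4 control had 283.80 and 380.41 TPM, and HaCa4-sorted 220.13, 205.34, and 238.24 TPM. The sorted LEC libraries thus held 0.0572%, 0.659%, and 0.268% of the HaCa4 control mean, or 0.0859%, 0.99%, and 0.402% of the HaCa4-sorted mean. *Dcn*, the only listed gene of 8 fibroblast markers, rose from 0.07, 0.60, and 0.26 TPM to 13.56, 88.88, and 30.08 TPM (limma log2 fold change 4.73 ± 0.61 SE, adjusted p = 0.00124). None of 14 myeloid markers was listed, which does not show that they were not expressed. In the sorted libraries *Dcn* was above *Saa3* and *Acod1* in all 3, and above *C3* in replicate 2. Of 12 endothelial markers *Kdr*, a VEGF receptor, was listed and fell by 0.59 on the log2 scale (adjusted p = 0.0126 from limma), from 136.83 to 171.50 TPM in the control to 88.48 to 116.71 TPM. Of 8 lymphatic markers *Pdpn* (podoplanin) was listed and rose by 1.28 on the log2 scale (adjusted p = 0.00769 from limma), from 97.01 to 179.30 TPM in the control to 239.08 to 435.92 TPM. The other markers on these lists were not analysed here. Listed genes outside the marker lists were not examined as signs of a cell type, so other cells may have left further traces. *Krt8* and *Dcn* were both highest in sorted replicate 2 and lowest in replicate 1, the order of *Acod1*. *Lcn2* and *Saa3* were also highest in replicate 2, whereas *Cebpb* was highest in replicate 1 and *C3* in replicate 3. Without sorted replicate 2 the log2 fold changes were 6.77 for *Lcn2*, 2.81 for *Saa3*, 2.17 for *C3*, 1.83 for *Acod1*, and 1.36 for *Cebpb*, and all were still called. *Dcn* and *Krt8* also stood above every control library in sorted replicates 1 and 3. Leaving out replicate 2 therefore does not remove their signal. The part of other cells in the rises of the 5 genes was not tested.

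**Figure D3:**
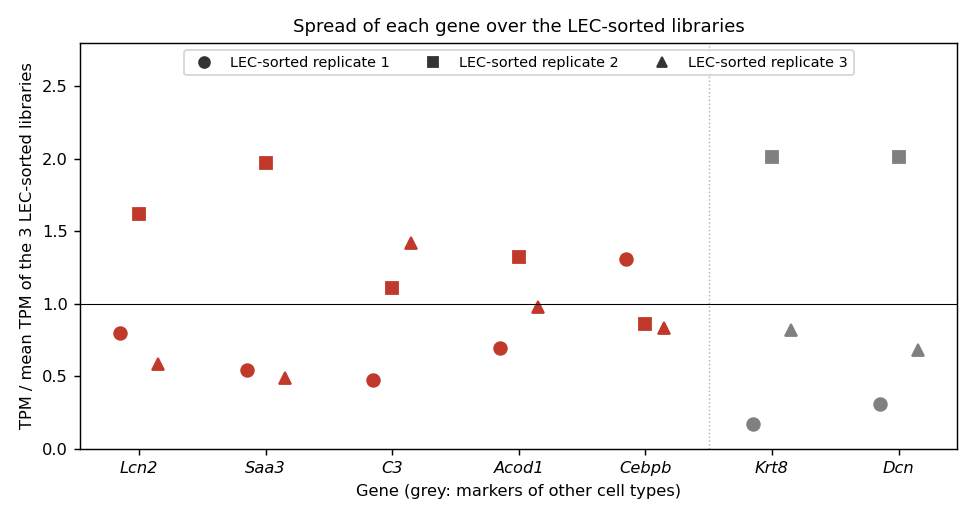
TPM in each LEC-sorted library divided by the mean of the 3 LEC-sorted libraries, for the 5 genes (red) and for the markers *Krt8* and *Dcn* (grey), with marker shapes for replicates 1 to 3. *Lcn2*, *Saa3*, and *Acod1* share their highest library, replicate 2, with *Krt8* and *Dcn*, whereas *C3* is highest in replicate 3 and *Cebpb* in replicate 1.

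The wider response was described with 4 lists of genes, beside the 63.9% of all listed genes that were called as higher. The lists were chosen with earlier results of these data known, and the listed genes were selected on these libraries. Counts of listed and called genes are therefore a description, and a gene that is not listed may still be expressed. The acute-phase list held 25 genes and was not limited to secreted proteins. Of these, 5 were among the listed LEC genes, and all 5 rose, with a median log2 fold change of 3.41. Beside *Lcn2* and *Saa3* these were *Steap4*, a metalloreductase of iron and copper, *Cp* (ceruloplasmin, a copper-carrying ferroxidase), and *Ptx3* (the soluble pattern receptor pentraxin 3). *Steap4* rose from a control level of 0.217 ± 0.159 TPM to 25.3 ± 18.3 TPM in LEC-sorted (SD, each n = 3). Its log2 fold change was 4.21. *Cp* rose from a control level of 1.52 ± 0.13 TPM to 21.9 ± 11.7 TPM in LEC-sorted (SD, each n = 3), and *Ptx3* from 4.33 ± 1.53 TPM to 33.0 ± 13.0 TPM (SD, each n = 3). All 5 were also called as higher after scaling to the same median, against 24.1% of the listed genes. Of 22 complement genes 3 were listed. *Cfb*, the factor B that joins C3 in the alternative pathway convertase, rose from a control level of 1.69 ± 1.08 TPM to 11.4 ± 4.40 TPM in LEC-sorted (SD, each n = 3). On the log2 scale this was 2.21, close to the 2.31 of *C3*. *Masp1*, a protease of the lectin pathway, fell by 0.59 on the log2 scale, from 106 ± 17.3 TPM to 69.7 ± 6.90 TPM (SD, each n = 3). *C3* and *Cfb* kept their direction and their call after scaling, when 46 of the 191 listed genes were called as higher and 64 as lower. *Masp1* also stayed called as lower, but the scaling shifts the listed genes downward, so this was largely set beforehand.

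Of 31 antimicrobial and innate effector genes 3 were listed and rose, *Lcn2*, *Acod1*, and *Sod2*, a mitochondrial superoxide dismutase. *Sod2* rose from a control level of 19.6 ± 3.43 TPM to 46.1 ± 11.3 TPM in LEC-sorted (SD, each n = 3), and its call was lost after scaling (adjusted p = 0.0607 from limma). Of 38 genes of C/EBP, IL-6/STAT3, and NF-κB control 13 were listed, and all 13 were called as higher, with a median log2 fold change of 1.27. Because listed genes were selected on these libraries, a call in either direction was largely set beforehand. The count of calls is therefore a description and not a test of this list. After scaling all 13 still had a positive log2 fold change, against 124 of the 191 listed genes. Of the 13, 6 were then called as higher, against 24.1% of the listed genes. *Nfkbiz* encodes IκBζ, a nuclear cofactor of NF-κB, and its log2 fold change was 2.06 ± 0.22 (SE) at an adjusted p of 0.000543 from limma. *Bcl3*, another nuclear IκB protein, rose from a control level of 4.75 ± 2.35 TPM to 21.1 ± 5.92 TPM in LEC-sorted (SD, each n = 3). *Cebpd*, the C/EBP family member next to *Cebpb* on this list, rose from a control level of 44.1 ± 9.78 TPM to 169 ± 17.8 TPM in LEC-sorted (SD, each n = 3). Its log2 fold change of 1.94 (standard error 0.20) stayed called after scaling, at 1.31, unlike that of *Cebpb*. *Zc3h12a*, which encodes the mRNA-degrading enzyme Regnase-1, rose from a control level of 4.85 ± 0.61 TPM to 18.8 ± 5.62 TPM in LEC-sorted (SD, each n = 3).

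**Figure D4:**
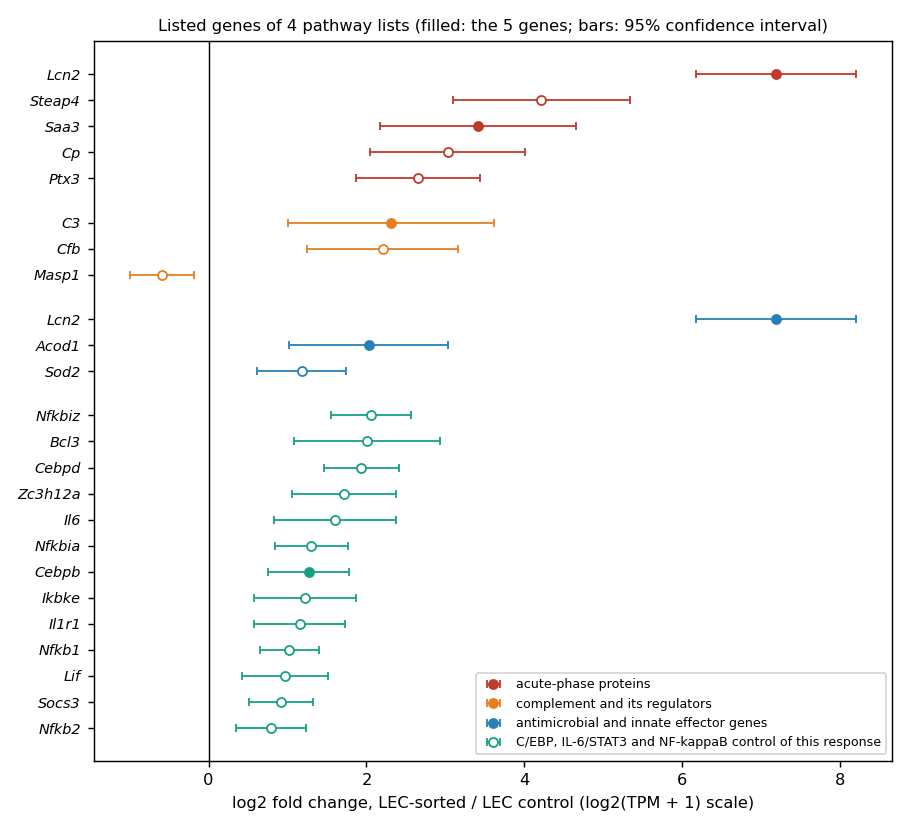
Log2 fold change of LEC-sorted against LEC control on the log2(TPM + 1) scale, with 95% confidence intervals, for the listed genes of 4 pathway lists, the 5 genes filled and the others open. All lie above 0 except *Masp1*, and *Lcn2*, drawn in both lists that hold it, lies furthest to the right.

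Patterns over the 6 LEC libraries were compared by Pearson's r of log2(TPM + 1) with the 189 other genes that reached a mean of 1 TPM in either group. The libraries fall into 2 groups, so r mostly reflects the group difference, and the median r over the compared genes was already between 0.71 and 0.89. The genes most like *Lcn2* were *Cxcl1*, a neutrophil-attracting chemokine (r = 0.997), *Il13ra2* (r = 0.995), and *Ivns1abp* (r = 0.994). *Cxcl1* held 10.64, 12.36, and 19.24 TPM in the control and 1203.40, 1775.22, and 596.80 TPM in the sorted libraries, the order of *Lcn2* in both groups. Most like *Saa3* were *Synpo* (r = 0.990), *Mmp13* (r = 0.987), and *Plpp3* (r = 0.987). *C3* was closest to *Bcl3* (r = 0.983), *Cfb* (r = 0.981), and *Gbp5* (r = 0.977), the last an interferon-inducible GTPase. *Acod1* was closest to *Bcl3* (r = 0.991), *Aig1* (r = 0.986), and *Ccl2* (r = 0.986). *Cebpb* was closest to *Nfkb2* (r = 0.996), *Cntnap1* (r = 0.986), and *Inhbb* (r = 0.981). *Nfkb2*, a subunit of NF-κB, held 44.74, 57.80, and 48.24 TPM in the control and 107.07, 79.05, and 78.68 TPM in the sorted libraries, again with sorted replicate 1 the highest.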

How the data were processed

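RNA was sequenced from LEC control (n = 3), LEC-sorted (n = 3), HaCa4 control (n = 2), and HaCa4-sorted (n = 3) libraries, grouped by their titles. Per the labels and methods, the authors filtered reads with SOAPnuke, aligned them with HISAT2 (v2.0.4) to GRCm38.p6, and used DESeq2. The authors deposited TPM values of selected genes, rounded to 2 decimals, and the tool that gave the TPM is not given in the sources used here. Depth is unknown, so precision rests on the replicates. The test was limma (v3.58.1, R v4.3.3) on log2(TPM + 1), letting the variance follow the mean level, two-sided, adjusted over all 191 LEC genes. It was checked on simulated data. Fold changes on this scale are too small for low genes. No low-value filter was used, and all 5 genes were tested. The genes and lists were chosen with earlier results of these data known. Named beside the 5 genes are up to 4 genes per list by size of change and the 3 most alike by r. The *Krt8*, *Dcn*, *Kdr*, and *Pdpn* values belong to lists of cell type markers. Alternatives were other pseudocounts (0.1 and 5 TPM), filters at a mean of 1 or 10 TPM, median scaling, no trend, a replicate block, a log2 threshold of 1, and leaving out each library. RefSeq (GRCm38.p6) gave positions and promoters, with all 191 genes matched for positions, and GENCODE M21 gave exons and transcripts. Plots were made with Python 3.11.15 and matplotlib 3.10.9.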

Additional observations from a re-analysis of the deposited data

How the results depend on the processing

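Counting each of the 5 genes under each alternative setting that kept it gave 63 values, all from the same libraries. The direction was positive in all 63, and the call was the same in 62. The exception was *Cebpb* under median scaling, at a log2 fold change of 0.65 (adjusted p = 0.0579 from limma, range over its alternatives 0.00133 to 0.0579). Leaving out each library in turn gave log2 fold changes from 6.77 to 7.51 for *Lcn2*, 2.81 to 3.75 for *Saa3*, 1.81 to 2.77 for *C3*, 1.60 to 2.34 for *Acod1*, and 1.06 to 1.39 for *Cebpb*, and all stayed called. With the filter at a mean of 10 TPM *Saa3* and *Acod1* were left out and give no value. Of all listed genes 184 were called, between 165 and 177 without any single library, 110 with median scaling (46 higher, 64 lower), and 95 at a log2 threshold of 1. The scaling used the median of the listed genes alone. Before scaling this median was 22.95 to 25.83 TPM in the control libraries and 33.78 to 41.56 TPM in the sorted libraries. Scaling therefore also takes out a rise shared by the listed genes. How much of that rise comes from the selection of the genes was not tested. With the replicate number as a block 182 were called, and the calls of the 5 genes were the same. The block lowered the standard errors of *Lcn2*, *Saa3*, *C3*, and *Acod1*, most in *C3* (0.56 to 0.27), and raised that of *Cebpb* (0.22 to 0.23). The residuals of same-numbered control and sorted libraries correlated at 0.23, 0.074, and -0.0189. Only replicate 1 matched best with its own number. These values cannot settle whether same-numbered libraries were paired. Unknown depth limits the low values of *Saa3* and *Acod1* most.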
